A study of Mus musculus with 6 samples.

Results

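The lipid droplet coat and droplet-building genes were 10 genes: the perilipins Plin2, Plin3, Plin4 and Plin5, together with Cidec, Fitm1, Fitm2, Hilpda, G0s2 and Bscl2. All probe sets whose only gene symbol in the array annotation was 1 of these names were taken, which gave 12 probe sets for the 10 genes, out of 18193 genes with such a probe set. Plin5 and Bscl2 had 2 probe sets each and the other members had 1. Plin1, the perilipin best known from white fat cells, had no probe set naming only it and was not analysed here.

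The arrays came from epididymal white adipose tissue of 3 CNOT3KO mice and 3 WT mice, all C57BL/6, 8 weeks old and kept under specific pathogen-free conditions, with 1 array per mouse. CNOT3KO mice lack Cnot3 in cells that express Cre under the Adiponectin promoter, a promoter of mature fat cells, and the deletion is not directed to vessel, immune and stromal cells. The labels call the controls wild type and do not say whether they carried Cre or a floxed allele. CNOT3 is a subunit of CCR4-NOT, which removes poly(A) tails and so starts the decay of many mRNAs.

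Fat cells store triglyceride in droplets that grow out of the endoplasmic reticulum and are covered by a single layer of phospholipid with proteins on it. Perilipins coat the droplet surface and control access of lipases, CIDEC moves lipid between touching droplets so that 1 large droplet forms, and the FITM proteins and seipin (Bscl2) act in the endoplasmic reticulum where droplets are built. HILPDA and G0S2 are small proteins that inhibit adipose triglyceride lipase (ATGL, the product of Pnpla2), the enzyme that starts triglyceride breakdown.

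Values are linear array signals, which have no absolute unit, and the level of 1 probe set cannot be set against that of another. Differences are CNOT3KO minus WT on the scale of log2(signal + 22.5), tested with limma across 12769 genes, and a gene was called at a Benjamini-Hochberg adjusted p under 0.05. The titles name separate mice, so the p-values measure the spread between mice, and the number of arrays limits their precision. Array medians were between 82.1 and 92.9. Cnot3 itself had signals of 194, 229 and 179 in CNOT3KO mice, against 305, 293 and 305 in WT mice, so every CNOT3KO array was below every WT array. The log2 difference of Cnot3 was -0.54 ± 0.14 (SE, adjusted p = 0.0131, limma). Where its probes lie relative to the deleted part is not given in the sources used here, and cells without Cre also contribute RNA, so this signal checks the labels only in part.

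The sequence upstream of the members that changed is given first, because Plin2 and Plin3 rose while Plin4 and Cidec fell in the same arrays. Sequences are from RefSeq on the build GRCm38.p6, 5′ to 3′ on the strand of the gene, and all 10 members matched. For each member that was called, the window of 250 bases before an annotated start was taken, at the most upstream start with a window. The part of it that lies outside the annotated gene is shown. For Plin2 and Plin4 this start itself lies within the annotated gene, so positions do not count from the end of the printed stretch. For Plin4 and Hilpda, whose matches at a further position lie within the annotated gene, a short stretch around that match follows. Plin2 also has a CCAAT match within the annotated gene, at -73 from the start of its window, which is not shown. Capitals mark matches to AGGTCA (the core hexamer bound by nuclear receptors), ACGTG (the core of the hypoxia response element), CCAAT or GGGCGG (the GC box), on either strand.
Plin2, chr4:86670218-86670309, minus strand: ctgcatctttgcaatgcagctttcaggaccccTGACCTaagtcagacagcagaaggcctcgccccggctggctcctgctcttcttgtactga
Plin3, chr17:56290512-56290761, minus strand: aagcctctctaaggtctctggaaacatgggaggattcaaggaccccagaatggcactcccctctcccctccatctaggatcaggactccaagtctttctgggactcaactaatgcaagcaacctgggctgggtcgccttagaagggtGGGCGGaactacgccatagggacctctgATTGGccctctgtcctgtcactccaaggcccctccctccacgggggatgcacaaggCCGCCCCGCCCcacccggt
Plin4, upstream, chr17:56109949-56110032, minus strand: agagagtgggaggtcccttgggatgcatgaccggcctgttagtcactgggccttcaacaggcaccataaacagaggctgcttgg
Plin4, within the gene, chr17:56109784-56109812, minus strand: taaggcttggggATTGGgcgcccagacgc
Cidec, chr6:113435761-113436010, minus strand: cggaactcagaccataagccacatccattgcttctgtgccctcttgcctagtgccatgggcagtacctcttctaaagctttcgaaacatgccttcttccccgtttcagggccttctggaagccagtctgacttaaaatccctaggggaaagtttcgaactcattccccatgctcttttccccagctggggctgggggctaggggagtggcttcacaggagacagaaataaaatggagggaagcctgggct
Fitm2, chr2:163472630-163472879, minus strand: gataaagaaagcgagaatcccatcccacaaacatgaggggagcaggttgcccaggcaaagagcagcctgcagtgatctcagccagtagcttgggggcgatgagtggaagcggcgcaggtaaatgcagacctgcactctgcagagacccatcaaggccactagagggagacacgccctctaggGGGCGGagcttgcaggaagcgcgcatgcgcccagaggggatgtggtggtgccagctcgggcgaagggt
Hilpda, upstream, chr6:29272238-29272487, plus strand: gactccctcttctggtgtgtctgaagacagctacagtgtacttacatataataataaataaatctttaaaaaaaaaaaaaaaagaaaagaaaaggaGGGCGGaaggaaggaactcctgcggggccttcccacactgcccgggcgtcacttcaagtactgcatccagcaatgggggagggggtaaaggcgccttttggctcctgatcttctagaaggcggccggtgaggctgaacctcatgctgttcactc
Hilpda, within the gene, chr6:29272571-29272599, plus strand: gatggccagcggACGTGccccagggcgag

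The members had 15 such windows, since some have several annotated starts. AGGTCA was in 3 of the 15 windows (of Bscl2, Plin2 and Plin5) and in 14.0% of 32851 windows of all genes. In the Plin2 window it began at position -218 from the start that the window precedes, which lies within the annotated gene. It reads TGACCT on the strand shown. ACGTG was in 1 window, at position -43 from the more downstream of the annotated Hilpda starts, and in 16.6% of all windows. The window before the upstream Hilpda start held a GC box at -154 and no ACGTG. The letters CCAAT were in 5 windows against 33.8% of all windows, and GGGCGG in 6 against 32.7%. Plin3 had 3 GC boxes, of which those at -19 and -14 overlap by a base, and a CCAAT box at -75. TATAAA was in 0 of the 15 windows and in 12.4% of all. A match is a description of these letters only.

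Of the 10 members, 9 were bright enough to be tested and Fitm1 was not. Plin2, Plin3 and Hilpda rose and Plin4, Cidec and Fitm2 fell, while Plin5, G0s2 and Bscl2 did not pass. In bulk tissue, fewer cells of a type and less RNA per cell cannot be told apart. The 6 calls among 9 members stand against 40.1% of all tested genes. Rises were called in 23.2% of tested genes, against 3 of 9 members, and falls in 16.9%, against 3 of 9. Groups did not overlap in 6 of the 9, against 51.7% of tested genes. The median log2 difference was 0.09 over the 9 members and 0.02 over all tested genes, and the median size of the difference, whatever its sign, was 0.51 over the members and 0.34 over all tested genes. No called member changed direction under the scalings tried, of which centring on the median gene lowered every log2 difference by 0.10.

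**Figure D1:**
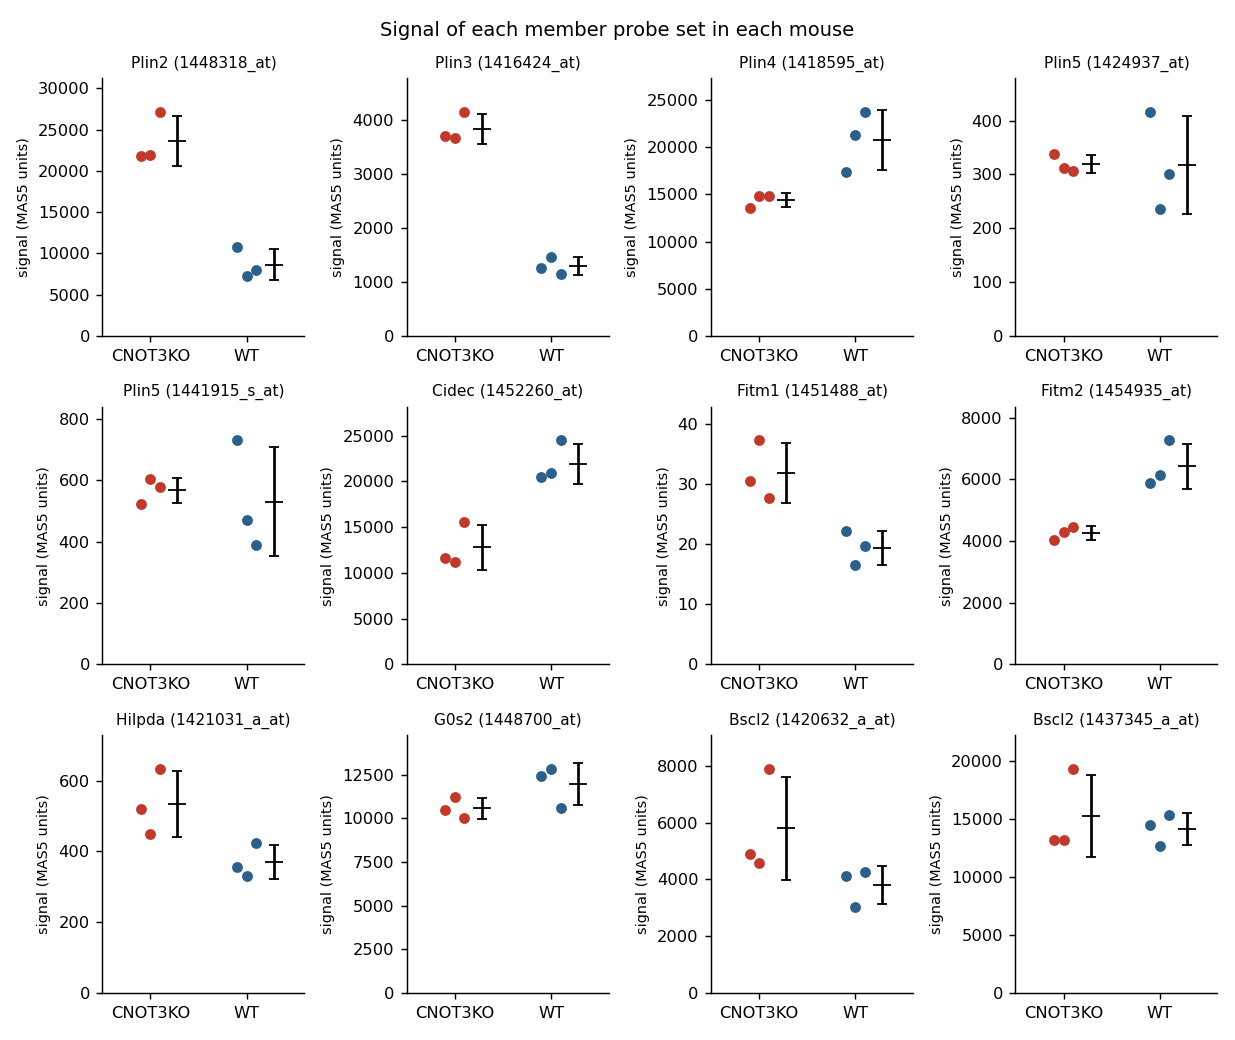
Linear signal of each member probe set on each array (points, linear axes that start at 0, probe set names above), with CNOT3KO mice left of WT mice and the mean ± SD beside them (n = 3 each). Plin2 and Plin3 are higher in every CNOT3KO array, and Plin4, Cidec and Fitm2 lower in every CNOT3KO array, than in any WT array.

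Plin2, the perilipin that coats droplets in most cell types and is common on small droplets, had signals of 21817, 21931 and 27134 in CNOT3KO mice, against 10725, 7257 and 7949 in WT mice. The lowest CNOT3KO array was above the highest WT array, and CNOT3KO mouse 3 was the highest of the 6. Mean signal was 23627 ± 3037 in CNOT3KO mice and 8644 ± 1835 in WT mice (SD, n = 3 each). The log2 difference was 1.46 ± 0.16 (SE, 95% interval 1.11 to 1.81, adjusted p = 0.000121, limma), a 2.75-fold rise. Of the 12769 tested genes, 339 (2.65%) had a larger difference. Plin2 lies on chr4:86626910-86670217.

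Plin3, a perilipin that is soluble in the cytosol and moves to new small droplets, had signals of 3701, 3659.8 and 4150.3 in CNOT3KO mice, against 1251, 1473 and 1152 in WT mice. The arrays of each group lay close together and the groups were far apart. Mean signal was 3837 ± 272 in CNOT3KO mice and 1292 ± 164 in WT mice (SD, n = 3 each). Its log2 difference of 1.56 ± 0.12 (SE, 95% interval 1.29 to 1.82, adjusted p = 2.3e-05, limma) was the largest among the members, a 2.95-fold rise. A larger difference was found in 291 tested genes (2.28%).

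Plin4, a perilipin of white fat cells found on newly forming droplets, had signals of 13563, 14854 and 14886 in CNOT3KO mice, against 17365, 21260.02 and 23736 in WT mice. All CNOT3KO arrays were below all WT arrays, with the wider spread among WT mice. The log2 difference was -0.51 ± 0.13 (SE, 95% interval -0.80 to -0.23, adjusted p = 0.00986, limma), so CNOT3KO signal was 0.700 of WT. In the fit over all probe sets, in which 36.0% were called, the adjusted p of its probe set was 0.0501 without CNOT3KO mouse 1, with a log2 difference of -0.47.

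Plin5, the perilipin of heart, muscle and brown fat that also brings droplets to mitochondria, was not called. Its brighter probe set, whose name marks it as able to match transcripts of more than 1 gene, had signals of 523, 603 and 578 in CNOT3KO mice, against 729.9, 470.3 and 391 in WT mice. The groups overlapped, with WT mouse 1 the highest and WT mouse 3 the lowest of the 6. Its log2 difference was 0.14 ± 0.20 (SE, 95% interval -0.31 to 0.59, adjusted p = 0.615, limma), an interval that spans changes in both directions. The dimmer probe set had signals of 338, 312 and 306 in CNOT3KO mice, against 416, 236 and 301 in WT mice, again overlapping. Its log2 difference was 0.04 (95% interval -0.38 to 0.46, adjusted p = 0.899, limma over probe sets).

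Plin4, Plin5 and Plin3 lie on chromosome 17, at chr17:56100587-56109948, chr17:56111597-56117606 and chr17:56278962-56290511. Plin4 and Plin5 are 1648 bases apart with 0 protein-coding genes between them, and Plin5 and Plin3 are 161 kb apart with 7 between them. In these arrays the neighbours therefore included a gene that fell, a gene that was not called and a gene that rose.

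**Figure D2:**
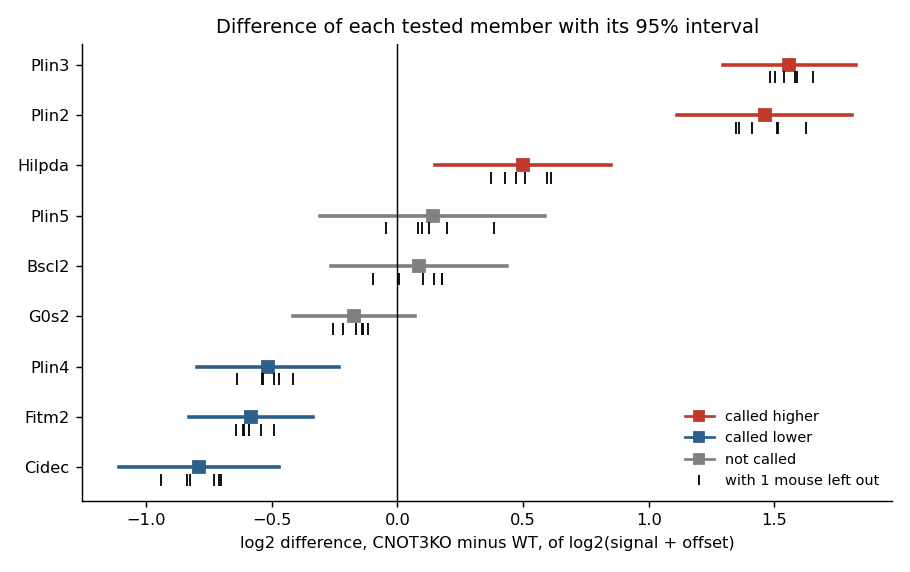
Difference in log2(signal + 22.5), CNOT3KO minus WT, for each member gene with its 95% interval from limma (n = 3 each), and short ticks for the difference with each mouse left out in turn. Plin3 and Plin2 stand highest at 1.56 and 1.46, Hilpda follows at 0.50, and Cidec stands lowest at -0.79.

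Cidec (also known as Fsp27), whose protein enlarges droplets by lipid transfer between them, had signals of 11618, 11162 and 15567 in CNOT3KO mice, against 20469, 20870.3 and 24468 in WT mice. Every CNOT3KO array was below every WT array, and mouse 3 was the highest of both groups. Mean signal was 12783 ± 2422 in CNOT3KO mice and 21936 ± 2202 in WT mice (SD, n = 3 each). Its log2 difference was -0.79 ± 0.14 (SE, 95% interval -1.11 to -0.47, adjusted p = 0.00201, limma), so CNOT3KO signal was 0.578 of WT. Of all tested genes, 770 had a lower difference. Cidec lies on chr6:113424634-113435760.

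Cidea, which is no member but a relative of Cidec typical of brown fat, had signals of 1792, 1103 and 3128 in CNOT3KO mice, against 859.7, 257 and 213 in WT mice. It was higher in every CNOT3KO array, with a wide spread in both groups, and its log2 difference was 2.26 ± 0.49 (SE, adjusted p = 0.00515, limma). Within each array, log2 Cidec minus log2 Cidea (each after adding 22.5, as in all such ratios) was 2.68, 3.31 and 2.31 in CNOT3KO mice, against 4.54, 6.22 and 6.70 in WT mice. All CNOT3KO values were below all WT values, a difference of -3.05. This separation follows from that of Cidec and Cidea taken singly and is no further support. The 2-sided exact permutation test gave p = 0.1, the smallest that 3 against 3 arrays allow, and 0.175 after Benjamini-Hochberg adjustment over the 7 pairs compared.

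Fitm2, an endoplasmic reticulum protein that lets triglyceride gather into droplets and is expressed in fat, had signals of 4032, 4304 and 4461 in CNOT3KO mice, against 5869, 6126 and 7258 in WT mice. No CNOT3KO array reached the lowest WT array. This gave a log2 difference of -0.58 ± 0.11 (SE, 95% interval -0.83 to -0.34, adjusted p = 0.00262, limma), so CNOT3KO signal was 0.668 of WT. It lies on chr2:163468703-163472629.

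Fitm1 (chr14:55575674-55576952), its relative expressed mainly in skeletal muscle and heart, was dim, at the 26.5th percentile of signal over all probe sets. Its signals were 30.5, 37.2 and 27.6 in CNOT3KO mice, against 22.1, 16.5 and 19.6 in WT mice. The groups did not overlap, but the gene was left out by the filter on dim genes, so no call was made. Without the filter its log2 difference was 0.37 (adjusted p = 0.178, limma). At such levels the value depends on the offset, being 0.68 with an offset of 1 and 0.16 with an offset at the median of all values. Of 15 skeletal muscle markers, 8 were also below the filter, and the summed signal of all 15 was 2659 to 3047 in CNOT3KO mice, against 4091 to 4670.4 in WT mice.

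Bscl2 (chr19:8837467-8848683) encodes seipin, which marks the sites in the endoplasmic reticulum where droplets form and whose loss causes lipodystrophy in humans. Its brighter probe set had signals of 13234, 13229.9 and 19349.7 in CNOT3KO mice, against 14484, 12697 and 15409 in WT mice. The groups overlapped and CNOT3KO mouse 3 was far above the other arrays. This probe set had a log2 difference of 0.09 ± 0.16 (SE, 95% interval -0.27 to 0.44, adjusted p = 0.696, limma).

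The dimmer Bscl2 probe set had signals of 4911, 4598 and 7897 in CNOT3KO mice, against 4124, 3036 and 4253.5 in WT mice. Here all CNOT3KO arrays were above all WT arrays, again with CNOT3KO mouse 3 the highest. The log2 difference was 0.58 ± 0.21 (SE, 95% interval 0.12 to 1.04, adjusted p = 0.0514, limma over probe sets), which is not a call. The adjusted p was 0.0323 without CNOT3KO mouse 2, 0.0470 after quantile normalization and 0.0494 with an offset at the median of all values. With the mouse number as a block it was 0.0119. Under the other alternatives it stayed at or above 0.05. With each mouse left out in turn, the log2 difference of this probe set was 0.34 to 0.72. Within arrays, log2 of the brighter minus the dimmer Bscl2 probe set was 1.43, 1.52 and 1.29 in CNOT3KO mice, against 1.81, 2.06 and 1.85 in WT mice, so the probe sets did not move alike. Both names mark probe sets that match several transcripts of the gene, and which transcripts each detects was not analysed here.

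Log2 Fitm2 minus log2 Bscl2 (brighter probe set) was -1.71, -1.61 and -2.11 in CNOT3KO mice, against -1.30, -1.05 and -1.08 in WT mice. CNOT3KO values were all lower, by -0.67 on average, with p = 0.1 in the exact permutation test (0.175 adjusted over the 7 pairs).

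Hilpda (chr6:29272488-29275449), the hypoxia-inducible inhibitor of ATGL, had signals of 521, 448 and 633 in CNOT3KO mice, against 355, 331 and 424 in WT mice. The groups did not overlap, although the lowest CNOT3KO array was close to the highest WT array. The log2 difference was 0.50 ± 0.16 (SE, 95% interval 0.15 to 0.85, adjusted p = 0.0295, limma), a 1.41-fold rise. It had the largest adjusted p of the 6 calls. The adjusted p was 0.0761 without CNOT3KO mouse 1, 0.0909 without CNOT3KO mouse 3, 0.0727 without WT mouse 1 and 0.104 without WT mouse 2. It was 0.0769 after centring on the median gene (log2 difference 0.40) and 0.0513 with no filter on dim genes.

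G0s2 (chr1:193272160-193273188), the abundant ATGL inhibitor of fat cells, had signals of 10484, 11206 and 10036 in CNOT3KO mice, against 12438, 12830 and 10575 in WT mice. The groups overlapped through CNOT3KO mouse 2 and WT mouse 3. The log2 difference was -0.17 ± 0.11 (SE, 95% interval -0.41 to 0.07, adjusted p = 0.237, limma), which leaves room for a modest fall and for almost none. Pnpla2, which encodes ATGL itself, had a log2 difference of -0.15 (adjusted p = 0.477, limma). Log2 G0s2 minus log2 Pnpla2 was -0.22, 0.21 and -0.54 in CNOT3KO mice, against 0.07, -0.01 and -0.54 in WT mice, with overlapping groups (exact permutation p = 1.0). Log2 Hilpda minus log2 G0s2 was -4.27, -4.58 and -3.94 in CNOT3KO mice, against -5.04, -5.18 and -4.57 in WT mice, overlapping narrowly (difference 0.67, exact permutation p = 0.2, adjusted 0.28).

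Ratios among the perilipins were also taken within each array, where scaling between arrays has no part, to compare the groups and not the levels of the genes. Plin2 and Plin3 were above WT, and Plin4 below WT, in every CNOT3KO array. The separation of their ratios was fixed by these values and is no further support. Log2 Plin2 minus log2 Plin4 was 0.68, 0.56 and 0.87 in CNOT3KO mice, against -0.69, -1.55 and -1.58 in WT mice. The CNOT3KO values were all above the WT values, a difference of 1.98. Log2 Plin3 minus log2 Plin4 was -1.87, -2.01 and -1.84 in CNOT3KO mice, against -3.77, -3.83 and -4.34 in WT mice, a difference of 2.07 with no overlap. Each gave p = 0.1 in the exact permutation test, the smallest possible, and 0.175 adjusted over the 7 pairs. Log2 Plin5 minus log2 Plin4 was -4.64, -4.57 and -4.63 in CNOT3KO mice, against -4.53, -5.43 and -5.84 in WT mice. These overlapped (difference 0.65, exact permutation p = 0.4, adjusted 0.467), with the spread almost wholly among WT mice.

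**Figure D3:**
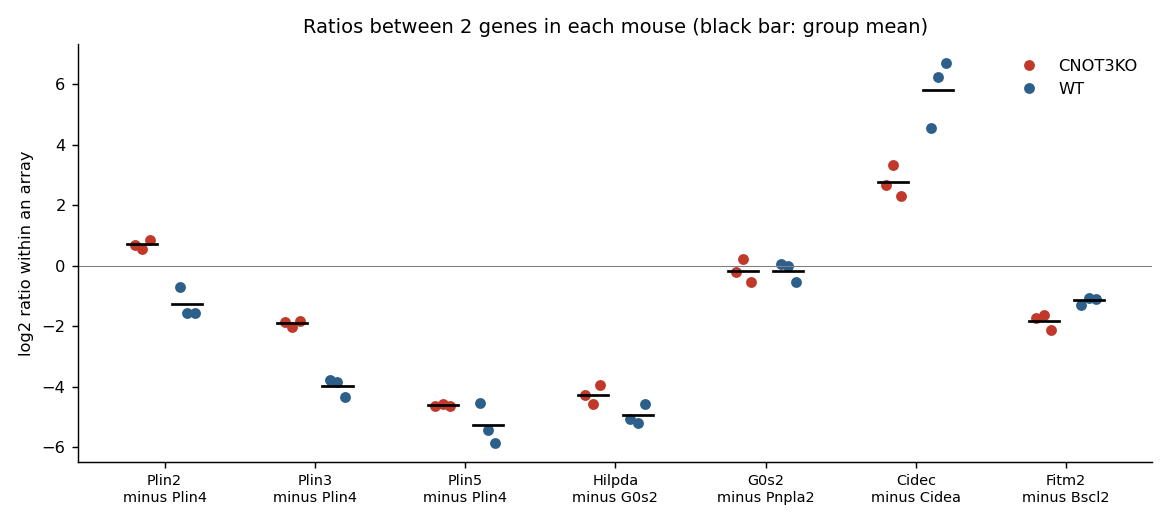
Log2 ratio of the 2 genes of each pair on each array, CNOT3KO mice beside WT mice, with group means as black bars. CNOT3KO arrays are above WT for Plin2 and Plin3 over Plin4, and below WT for Cidec over Cidea and Fitm2 over Bscl2.

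**Figure D4:**
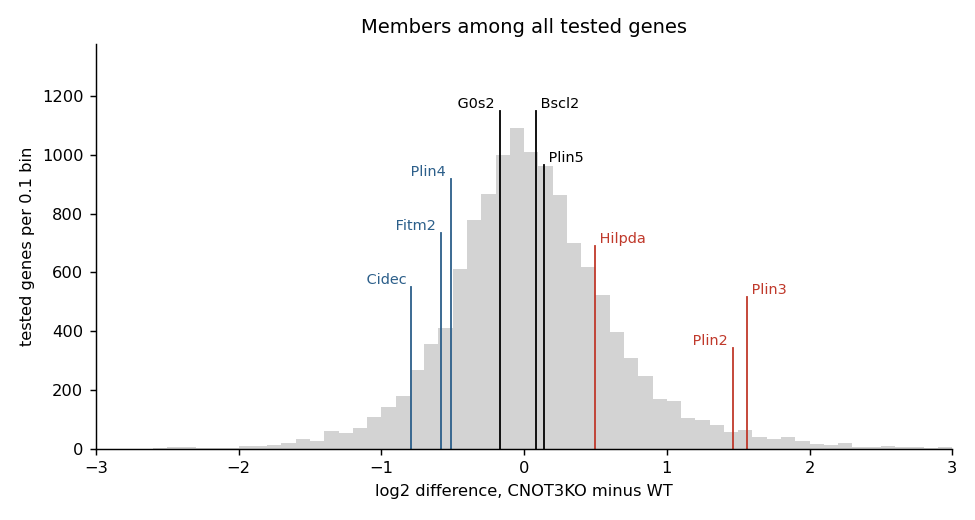
Histogram of log2 differences, CNOT3KO minus WT, over the 12769 tested genes in bins of 0.1, drawn from -3 to 3, with the 9 tested members as lines. Plin2 and Plin3 lie in the upper tail, where 339 and 291 genes lie higher, and the other members lie in the body or its lower shoulder.

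The rest of the droplet pathway was described from lists. Of 15 tested droplet lipolysis genes, 1 rose, 6 fell and 8 did not pass, with a median log2 difference of -0.19. Lipa, the acid lipase that digests lipid in lysosomes, averaged 4841 ± 203 in CNOT3KO mice and 1337 ± 154 in WT mice (log2 difference 1.84, adjusted p = 1.0e-05, limma). Ces1f, a carboxylesterase, averaged 3631 ± 1353 in CNOT3KO mice and 9667 ± 2307 in WT mice (-1.44, adjusted p = 0.00135). Prkar2b, a regulatory subunit of protein kinase A, averaged 4683 ± 189 in CNOT3KO mice and 9864 ± 355 in WT mice (-1.07, adjusted p = 4.3e-05). Abhd5, the activator of ATGL, had a log2 difference of 0.50 and was not called (adjusted p = 0.0619), nor was Lipe, hormone-sensitive lipase (-0.02).

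Of 34 other droplet proteins tested, 9 rose, 7 fell and 18 did not pass, with a median of 0.14. Over the alternative settings, 6 to 13 of these rose and 3 to 8 fell, with 4 falls without CNOT3KO mouse 2, WT mouse 2 or WT mouse 3. Among the lipolysis genes 4 to 9 fell and 1 to 2 rose, with 2 rises without CNOT3KO mouse 2 or WT mouse 3. Cidea is described above. Ethe1, a mitochondrial sulfur dioxygenase, averaged 541 ± 26.5 in CNOT3KO mice and 211 ± 32.2 in WT mice (1.28, adjusted p = 0.000145, limma), and Mettl7a1, a methyltransferase-like protein of droplets, 4074 ± 989 in CNOT3KO mice and 10220.2 ± 1121 in WT mice (-1.34, adjusted p = 0.000265). Of 17 triglyceride assembly genes, 2 rose, 6 fell and 9 did not pass, with a median of -0.23. The falls were led by Mogat1, a monoacylglycerol acyltransferase, at 0.197 of WT (-2.34, adjusted p = 2.5e-05, limma), and by the glycerol-phosphate acyltransferases Gpat3 (-0.99) and Gpat4 (-0.79). The triglyceride assembly rises numbered 1 without CNOT3KO mouse 1, CNOT3KO mouse 3, WT mouse 2 or WT mouse 3.

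**Figure D5:**
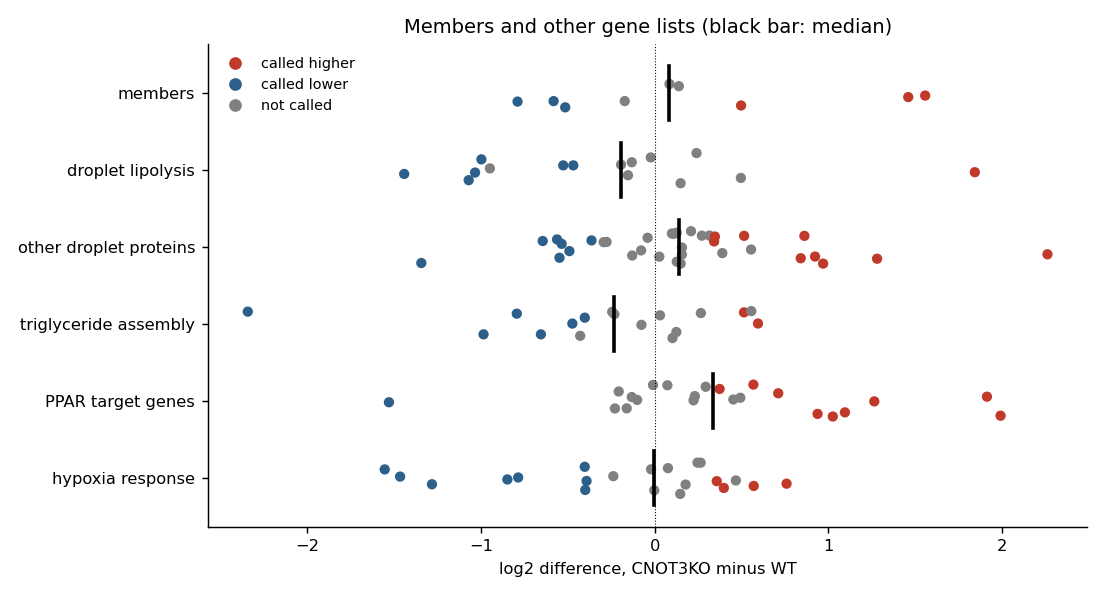
Log2 differences of the tested genes of each list, CNOT3KO minus WT, beside those of the members, with list medians as black bars and colours for the call. The members spread from -0.79 to 1.56, and the medians of the pathway lists lie between -0.23 and 0.33.

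Plin2 and Angptl4 are textbook targets of the nuclear receptors PPARα, PPARγ and PPARδ. Which other members, including those that fell or were not called, are also targets was not analysed here. Of 22 tested PPAR target genes, 9 rose, 1 fell and 12 did not pass, with a median log2 difference of 0.33. Ehhadh, a peroxisomal oxidation enzyme, averaged 7588 ± 2340.2 in CNOT3KO mice and 1959 ± 350.3 in WT mice (1.91, adjusted p = 0.00012, limma). Angptl4, an inhibitor of lipoprotein lipase, averaged 13143 ± 1085 in CNOT3KO mice and 6233 ± 1390 in WT mice (1.10, adjusted p = 0.000709). Pdk4, which turns pyruvate away from oxidation, was 3.98-fold higher, and Pck1, which feeds glycerol synthesis in fat, was at 0.346 of WT. Pparg itself had a log2 difference of -0.23 (adjusted p = 0.237) and Ppara of 0.31 (adjusted p = 0.163). Without WT mouse 1 both passed, at -0.39 (adjusted p = 0.0244) and 0.48 (adjusted p = 0.0294).

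Hilpda is a target of the hypoxia-inducible factors. Of 21 tested genes of the hypoxia response, 4 rose, 8 fell and 9 did not pass, with a median of -0.0020. The rises numbered 2 without CNOT3KO mouse 3 or WT mouse 2 and after centring on the median gene. The largest changes were falls, of Vegfa (0.340 of WT), Ndrg1 (0.362) and Egln1 (0.411).

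The tissue held markers of its labelled cell type, and marker genes of other cells moved with the groups. Of 18 tested adipocyte markers, 1 rose and 5 fell (Lgals12 and Pck1 most), and their summed signal was 239876 to 291397 in CNOT3KO mice, against 258053 to 318533 in WT mice. Adipoq (-0.08, adjusted p = 0.742, limma) was not called and Lep (-1.25, adjusted p = 8.9e-05) fell. Of 26 macrophage markers, 21 rose and 1 fell, and their sum was 159449 to 191441 in CNOT3KO mice, against 91483 to 101862 in WT mice. The single fall, of Mertk, was not called without CNOT3KO mouse 3, WT mouse 2 or WT mouse 3. Of 19 endothelial markers 18 fell and 0 rose, with sums of 22860 to 26212 in CNOT3KO mice, against 43904 to 47587 in WT mice. Brown or beige markers gave 5 rises and 3 falls among 10 tested. The falls were of Ppargc1a (-1.11, adjusted p = 0.00251, limma), Ebf2 (-1.10, adjusted p = 0.00350) and Prdm16 (-0.76, adjusted p = 0.0162). Over the alternative settings, 2 to 3 genes of this list fell. Sums over all 12 brown or beige markers were 8086 to 12165 in CNOT3KO mice, against 4642 to 6139 in WT mice. Without CNOT3KO mouse 3, WT mouse 2 or WT mouse 3 the rises were 3. Ucp1 was too dim to be tested. Its signals were 43.9, 73.3 and 111.5 in CNOT3KO mice, against 4.9, 8.9 and 5.7 in WT mice, without overlap. Plin2 and Plin3 are also expressed by macrophages, and the part of these cells in their rise was not tested. Plin4, Cidec and Fitm2 are abundant in fat cells, and the part of the changed adipocyte markers in their falls was not tested.

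The marker genes with the largest called differences were named for each list. Atp6v0d2, a proton pump subunit of macrophages, averaged 3116 ± 653 in CNOT3KO mice and 127 ± 27.9 in WT mice. Trem2, a lipid receptor of macrophages, had signals of 1616, 1254 and 1550.0 in CNOT3KO mice, against 24.2, 22.7 and 110.0 in WT mice, so that it passed the filter through the CNOT3KO arrays. Its log2 difference depended on the setting, at 4.51 with the main offset, 5.18 with an offset of 1, 3.52 with an offset at the median of all values and 1.88 with the mean of its probe sets. Kdr, a VEGF receptor, and Gpihbp1, which carries lipoprotein lipase to capillaries, had differences of -2.03 and -1.64. Cox7a1 and Elovl3, genes of brown fat, had 2.69 and 3.20. Every WT signal of Elovl3 was below the filter cut of 51.6 (WT mean 32.2), so Elovl3 passed the filter through the CNOT3KO arrays. The size of its difference depends on the offset, being 9.21-fold on the scale with the offset, against a ratio of mean signals of 15.4.

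Smooth muscle and pericyte markers gave 3 rises and 7 falls of 12 (Kcnj8 -1.32, Rgs5 -1.29), with sums of 16916 to 20237 in CNOT3KO mice, against 20907 to 27889.7 in WT mice. Mesothelial markers gave 0 rises and 5 falls of 10 (Msln -1.04, Krt18 -0.80), with sums of 3848 to 5561 in CNOT3KO mice, against 6224 to 7837 in WT mice. The mesothelial falls were 3 without WT mouse 2 and 9 after centring on the median gene. T, NK and B cell markers gave 2 rises and 2 falls of 10 tested (Il7r 2.74, Ms4a1 -1.49), and 6 did not pass. Those falls were 1 without CNOT3KO mouse 3 or WT mouse 3 and 0 without WT mouse 2. The sums of this list were 2100.4 to 2851 in CNOT3KO mice, against 1211 to 1767 in WT mice. The CNOT3KO sums rest largely on Il7r, with 1294, 1695 and 1094 in CNOT3KO mice, against 151, 175 and 224 in WT mice. Ms4a1 had CNOT3KO signals of 44.4, 41.8 and 32.1, so it passed the filter through the WT arrays. Neutrophil and mast cell markers gave 3 rises and 1 fall of 6 tested (Mcpt4 1.75, Cpa3 1.66). Their sums were 1348 to 2150.5 in CNOT3KO mice, against 1153 to 1299 in WT mice. The fall, of Kit (-0.71, adjusted p = 0.0146, limma), was not called without WT mouse 1. S100a8 and Mpo did not pass. Mcpt4 had WT signals of 10.5, 35.8 and 6.6, so it passed the filter through CNOT3KO arrays. Skeletal muscle markers gave 1 rise (Mb, 0.99) and 1 fall (Myl1, -0.78) of 7 tested. Mb was not called without CNOT3KO mouse 1, CNOT3KO mouse 2, WT mouse 2 or WT mouse 3. Without CNOT3KO mouse 3 the muscle rises were 2, and without WT mouse 2 the muscle falls were 2. Of 2 tested epididymis markers, 1 rose (Rnase10, 0.72).

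Other genes followed the pattern of the members over the 6 arrays. For Plin3 the closest by Pearson correlation of log2 signals were Aspg (r = 0.9987), Mettl8 (0.9986) and Elp3 (0.9986), with log2 differences of 2.66, 0.41 and 1.06, and 996 tested genes had r above 0.95. For Plin2 they were Ppp2r3c (0.9997), C430042M11Rik (0.9991) and Golga1 (0.9986), with 0.56, 1.17 and 0.78, and 802 genes above 0.95. These correlations are descriptions over 6 arrays that share the difference between groups. The differences of Ppp2r3c and Golga1 were 0.19 and 0.21 with the mean of all their probe sets, and neither then passed. With probe sets that can cross-hybridise avoided, that of Ppp2r3c was 0.063 (adjusted p = 0.757, limma). Mettl8 was not called after centring on the median gene (0.31, adjusted p = 0.0647, limma) or without CNOT3KO mouse 1, CNOT3KO mouse 2 or WT mouse 3.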

How the data were processed

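Whole epididymal white adipose tissue of 3 CNOT3KO and 3 WT mice was measured with 1 Affymetrix array per mouse. Per the submitters' processing notes, the deposited signal intensities were made by the authors with MAS5, whose version and settings were not stated in the sources read here. They are linear signal intensities, 1 per probe set, with no value below 1. MAS5 subtracts mismatch signal, which makes log values of dim probe sets imprecise.

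Of 45037 probe sets, 34945 carried 1 gene symbol in the platform annotation, 932 several and 9160 none. Each gene was represented by its brightest such probe set. Genes with a mean signal below the 40th percentile (51.6) were not tested. Signals were analysed as log2(signal + 22.5), where 22.5 is the 25th percentile of the table, with limma (version 3.58.1, R 4.3.3; lmFit, eBayes with trend, two-sided) and Benjamini-Hochberg adjustment over 12769 genes or, in a second fit, 27022 probe sets. The median standard error was 0.149. Pairs of genes were compared within arrays by an exact permutation test. The fits were tested on simulated data. Python 3.11.15, numpy 2.4.6, pandas 2.3.3 and matplotlib 3.10.9 were used.

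The named genes were all members, the 3 largest called changes of each pathway list, the 2 largest of each marker list, Cnot3, Adipoq, Lep, Pparg and Ppara, both genes of each pair, and the 3 genes most like Plin2 and Plin3. Abhd5, Lipe, Angptl4, Mertk, Ucp1, Ppargc1a, Ebf2, Prdm16, Kit, S100a8 and Mpo were named after their values were seen. The members, lists and tests were chosen with earlier results of these data known. Mouse numbers 1 to 3 are shared by the groups, but nothing says that they pair mice. The alternatives were other offsets, filters, scalings, probe set choices, eBayes settings, weighted arrays, a block for mouse number, stricter thresholds and fits without 1 array.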

Additional observations from a re-analysis of the deposited data

How the results depend on the processing

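Plin2, Plin3 and Cidec kept their direction and their call under all 21 alternatives, with log2 differences of 1.35 to 1.63, 1.46 to 1.66 and -0.94 to -0.70. Plin4 (-0.64 to -0.41) and Fitm2 (-0.68 to -0.49) kept theirs except where a change of at least 1.5-fold was also required, which left 1 member called lower. Hilpda kept its direction (0.37 to 0.61) and lost its call under 8 alternatives. Over all genes, an adjusted p under 0.01 called 1895 higher and 1249 lower, and the 1.5-fold rule 1919 higher and 1317 lower, against 2959 and 2156. Centring on the median gene gave 2318 higher and 2800.0 lower, so that 45.3% of calls were higher against 57.8%. Values near 0 changed sign: Bscl2 was -0.0017 with array weights and -0.011 after median centring, and Adipoq 0.038 after quantile normalization. With each array left out in turn, the ranges were -0.047 to 0.39 for Plin5 and its brighter probe set, -0.14 to 0.24 for its dimmer probe set, -0.10 to 0.18 for Bscl2 and its brighter probe set, -0.27 to 0.071 for Adipoq, -0.29 to 0.00043 for Pnpla2 and -0.21 to 0.16 for G0s2 minus Pnpla2. The causes were not tested. With mouse number as a replicate block, 2910.0 genes were called higher and 2182 lower, with the same 3 and 3 members. Deviations of same-numbered mice correlated at 0.0742, 0.109 and 0.0433, so the numbers were not taken to pair the mice. Signal over background limits Fitm1.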

Other observations

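Among the member probe sets, the highest CNOT3KO signal was in CNOT3KO mouse 3 for 8 of 12, in mouse 2 for 3 and in mouse 1 for 1. Among WT mice, mouse 3 was the highest for 6, mouse 1 for 4 and mouse 2 for 2. The summed adipocyte markers were also highest in mouse 3 of each group, at 291397 in CNOT3KO mice and 318533 in WT mice, and Adipoq was highest there too, at 32021 in CNOT3KO mice and 34975 in WT mice.

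Fibroblast markers, which the members do not include, gave 5 rises and 1 fall among 12 tested, with 0 falls without CNOT3KO mouse 1, CNOT3KO mouse 3 or any of the WT mice and 2 without CNOT3KO mouse 2. Lum, a matrix proteoglycan, averaged 9049 ± 426 in CNOT3KO mice and 3119 ± 624 in WT mice, and Col1a1, a collagen chain, 1226 ± 259 in CNOT3KO mice and 476 ± 52.1 in WT mice (SD, n = 3 each). Their log2 differences were 1.55 and 1.31 (adjusted p = 4.8e-05 and 0.000216, limma).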
